A study of Homo sapiens with 6 samples.

Results

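GATA2 and 9 genes that work with it or mark the mast cell and erythroid branches of blood formation were followed in OCI-AML2, a human acute myeloid leukemia cell line. The count table held 58233 Ensembl identifiers. Of the 10 genes, GATA2, GATA1, ZFPM1, TAL1, LMO2 and GFI1B are transcription factor genes. HDC encodes the histamine-forming enzyme and SRGN a granule proteoglycan, and RHEX and EPOR belong to erythropoietin signalling. All 10 genes were taken by symbol, with the difference between the groups of these libraries already known for several of them. Levels and fold changes of these 10 genes are therefore a description, and where a fit across all genes called some of them, that call is no independent evidence. Polyadenylated RNA was sequenced from 3 libraries labelled IKZF1-ko, from cells edited by CRISPR at IKZF1, and from 3 libraries labelled NT control, from cells with a non-targeting control. IKZF1 encodes Ikaros, a DNA-binding regulator of lymphoid and myeloid cells, and both groups share the OCI-AML2 background and the culture medium. The series design speaks of 3 lines per group and the extraction text of triplicates of parental and CRISPR-derived cells. Whether replicates are separate edited lines, cultures or extractions is thus unclear. The p-values set the group difference against the spread between libraries within groups, which may be technical alone. Each edited line is a cell line without the other cells of bone marrow.

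GATA2 keeps blood stem and progenitor cells in an immature state and is also needed by mast cells. In red cell formation GATA1 takes its place on shared DNA sites, with ZFPM1 (FOG1) as its cofactor. GATA factors act in a complex with TAL1, a basic helix-loop-helix protein, and with LMO2, which bridges them through LDB1. GFI1B is a zinc-finger repressor of erythroid and megakaryocytic cells that recruits the histone demethylase KDM1A. HDC makes histamine from histidine, and serglycin, the product of SRGN, is the proteoglycan that packs mediators and proteases into granules. EPOR is the receptor of erythropoietin, and RHEX is a membrane protein that takes part in EPOR signalling in human erythroid progenitors.

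Promoter sequences are shown because GATA factors recognize DNA by sequence. Those given are of GATA2, RHEX and HDC, which were lower in IKZF1-ko, and of EPOR, which was not. Whether GATA factors act at them was not tested. RefSeq entries on GRCh38.p14 were found for 8 of the 10 genes, 11 promoters in all, each covering 250 bases before and 50 bases after a transcription start. SRGN and LMO2 had no entry. The GATA motif was searched on both strands as the letters GATA with A or T before them and A or G after them. Capitals mark its matches, which read as the reverse complement where the motif lies on the other strand. The lines give RHEX (chr1:206083345-206083644, plus strand), EPOR (chr19:11384265-11384564, minus strand), GATA2 (chr3:128493152-128493451, minus strand) and HDC (chr15:50265677-50265976, minus strand), 5′ to 3′ in the direction of transcription.
RHEX: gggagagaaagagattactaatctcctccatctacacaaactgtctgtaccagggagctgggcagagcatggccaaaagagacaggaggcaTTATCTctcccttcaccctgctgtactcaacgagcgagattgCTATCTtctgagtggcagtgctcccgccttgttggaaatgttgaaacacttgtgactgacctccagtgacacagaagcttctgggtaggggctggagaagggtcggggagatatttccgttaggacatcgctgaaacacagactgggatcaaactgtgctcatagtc
EPOR: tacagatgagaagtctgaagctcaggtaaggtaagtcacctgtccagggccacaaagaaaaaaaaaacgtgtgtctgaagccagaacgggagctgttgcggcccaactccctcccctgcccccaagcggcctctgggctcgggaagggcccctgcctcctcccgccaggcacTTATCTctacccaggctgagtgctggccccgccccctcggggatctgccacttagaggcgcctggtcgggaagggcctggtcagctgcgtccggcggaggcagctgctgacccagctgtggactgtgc
GATA2: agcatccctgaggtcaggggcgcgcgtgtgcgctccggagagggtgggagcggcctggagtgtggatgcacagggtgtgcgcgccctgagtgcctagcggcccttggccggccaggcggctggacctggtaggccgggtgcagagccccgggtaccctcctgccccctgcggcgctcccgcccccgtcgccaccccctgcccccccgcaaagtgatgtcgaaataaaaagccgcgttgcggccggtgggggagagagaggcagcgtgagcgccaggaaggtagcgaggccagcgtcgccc
HDC: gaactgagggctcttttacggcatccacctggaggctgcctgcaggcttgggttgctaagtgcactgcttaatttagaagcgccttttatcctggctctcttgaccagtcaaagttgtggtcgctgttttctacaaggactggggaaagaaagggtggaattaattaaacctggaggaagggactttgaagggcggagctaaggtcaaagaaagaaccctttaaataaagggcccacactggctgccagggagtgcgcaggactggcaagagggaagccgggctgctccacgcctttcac
RHEX had 2 matches, from -159 to -154 and from -117 to -112 relative to the start, and EPOR had 1, from -78 to -73. The promoters of GATA2 (both entries), HDC, ZFPM1 and GATA1 had 0 matches, and TAL1 and GFI1B also had matches. In all, 5 of the 11 promoters held the motif, against 25% of 35116 promoters of the same length. The motif TGGGAA, a core to which Ikaros binds, was in 0 of the 11, against 24% of all promoters on either strand. The E-box CANNTG, which TAL1 binds together with E proteins and which reads the same class of letters on both strands, was in 7 of the 11, against 68.7% of all. No motif overlapped another in the sequences shown. These are matches of letters and do not show binding.

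Facts of the whole series come first. The libraries held 11300519 to 18214328 counted reads, with 15250588 to 18214328 in IKZF1-ko and 11300519 to 14983528 in NT control. IKZF1 mRNA was at 421 to 436 CPM (a gene's count scaled to the same total in every library) in the libraries labelled IKZF1-ko and at 292 to 334 CPM in NT control. A count per gene shows neither an edited sequence nor the protein, so this does not check the labels, and directions are those of the libraries so labelled. IKZF1-ko replicate 1 and NT control replicate 2 stood apart from the other 4 libraries on the first principal component, which held 67.6% of the variance. They are called the smaller library set, and no label names what they share. Of the 8 myeloid markers, 6 averaged at least 1 CPM, among them SPI1, CEBPA and CD33, while ANPEP and CD14 did not.

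Defining markers of the mast cell and erythroid branches were at or near 0. The erythroid markers HBA1, HBB, HBG1, ALAS2, SLC4A1 and AHSP had 0 counts in all 6 libraries, and KLF1 had 4 reads in all. Of 7 mast cell markers, TPSAB1, CPA3 and CMA1 had 0 counts. The summed level of all 7 was 0.546 to 2.21 CPM in IKZF1-ko libraries and 0.875 to 0.933 CPM in NT control libraries. Most of it was MS4A2, the beta chain gene of the IgE receptor, with means of 1.14 CPM in IKZF1-ko and 0.566 CPM in NT control. Its groups overlapped, with 2.21, 0.273 and 0.946 CPM in IKZF1-ko replicates, against 0.509, 0.751 and 0.437 CPM in NT control replicates. KIT, the stem cell factor receptor gene of mast cells and progenitors, had 9 reads in all, and CD34 had 0. The libraries thus go against a mast cell or erythroid identity, and the 10 genes are referred to here as GATA2 and the genes followed with it.

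Per kilobase of exon, which allows genes to be compared, the levels of the 10 genes differed widely. SRGN averaged 2450 CPM per kilobase over the 6 libraries and ranked 9 among 57895 genes with a known length. LMO2 followed at 49.3 CPM per kilobase. EPOR (4.53 CPM per kilobase) and GATA2 (3.85 CPM per kilobase) came next, and their ranges overlapped, with EPOR the higher in 4 of 6 libraries. RHEX averaged 1.73, HDC 0.257 and ZFPM1 0.174 CPM per kilobase. RHEX lay below GATA2 and above HDC within each of the 6 libraries. HDC lay below ZFPM1 in each of the 3 IKZF1-ko libraries and above it in each of the 3 NT control libraries. GATA1 (0.0586 CPM per kilobase) and TAL1 (0.0584 CPM per kilobase) could not be told apart, and GFI1B was last with 1 read in all. OCI-AML2 thus carried GATA2 mRNA with almost no GATA1, TAL1 or GFI1B mRNA, whereas LMO2 was abundant.

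**Figure D1:**
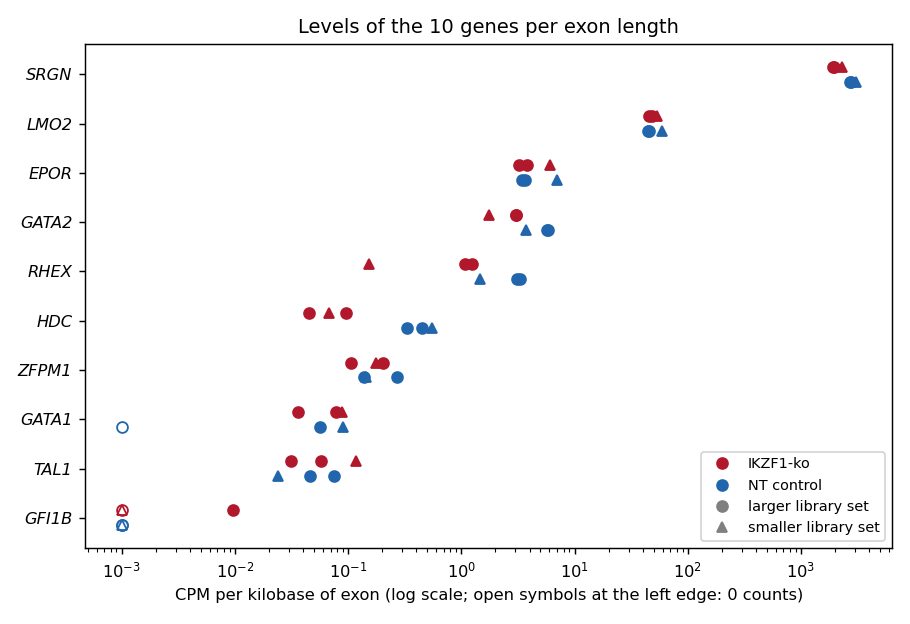
Level of each of the 10 genes in CPM per kilobase of exon (horizontal log axis), 1 symbol per library, IKZF1-ko above NT control for each gene, with triangles for the smaller library set and open symbols at the left edge for 0 counts. SRGN lies near 2450 and LMO2 near 49.3 on average, while GATA1, TAL1 and GFI1B lie at or below 0.117 in all 6 libraries.

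GATA2 (ENSG00000179348, GRCh38 chromosome 3, 128479427 to 128493185) was measured at 7.75, 13.6 and 13.7 CPM in IKZF1-ko replicates 1, 2 and 3, against 26, 16.7 and 25.4 CPM in NT control replicates 1, 2 and 3. Every IKZF1-ko library lay below every NT control library, and in both groups the lowest was the library of the smaller set. The means were 11.7 ± 3.39 CPM in IKZF1-ko and 22.7 ± 5.17 CPM in NT control (SD, n = 3 each). On the log2 scale the change was -0.95 (SE 0.28) on group alone, -0.97 (SE 0.096) with a term for the library set and -0.91 (SE 0.10) in the 4 libraries of the larger set. Set by set, GATA2 was 2.16-fold lower in IKZF1-ko replicate 1 than in NT control replicate 2, and 1.88-fold lower in the other 4 libraries. In bulk RNA, fewer cells with GATA2 mRNA and less of it per cell cannot be told apart.

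The DNA-binding partners were low and showed no such separation. GATA1 (chromosome X, 48786554 to 48794311) had 2, 1 and 2 reads in IKZF1-ko replicates 1, 2 and 3, against 1, 2 and 0 reads in NT control replicates. Pooled over each group this is 0.0996 CPM in IKZF1-ko (95% exact Poisson interval 0.0323 to 0.232) and 0.079 in NT control (0.0163 to 0.231). The intervals, which cover counting error only, overlap almost fully, and a difference in GATA1 was not detectable at this depth. TAL1 (chromosome 1, 47216290 to 47232220) had 10, 6 and 3 reads in IKZF1-ko, against 5, 2 and 3 reads in NT control. The highest and the lowest TAL1 counts both came from the smaller library set. TAL1 shares 845 exon bases with an antisense gene, and the strand setting of the counting is not given. GFI1B (chromosome 9, 132944000 to 132991687) had 0, 0 and 1 reads in IKZF1-ko and 0 in each NT control library. Its pooled 95% exact Poisson interval in NT control ends at 0.0971 CPM, where 3 counts over the group would be 0.079 CPM. The exons of GFI1B share 349 bases with TSC1 on the opposite strand.

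ZFPM1, the cofactor of GATA1, was present at about 1 CPM. It had 1.07, 0.655 and 1.24 CPM in IKZF1-ko replicates and 0.848, 0.887 and 1.66 CPM in NT control replicates. The groups overlapped and the log2 fold change with the library-set term was -0.19 (SE 0.38), but 0.20 without NT control replicate 3. LMO2, the bridging protein gene, had 167, 140 and 151 CPM in IKZF1-ko libraries, against 140, 182 and 139 CPM in NT control libraries. Its means were 153 ± 13.6 CPM in IKZF1-ko and 154 ± 24.9 CPM in NT control, and the fold change of the library-set fit rounded to 0.00 (SE 0.053, log2). On group alone the log2 fold change was -0.01 (SE 0.14). In both groups the highest LMO2 level was that of the smaller set.

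**Figure D2:**
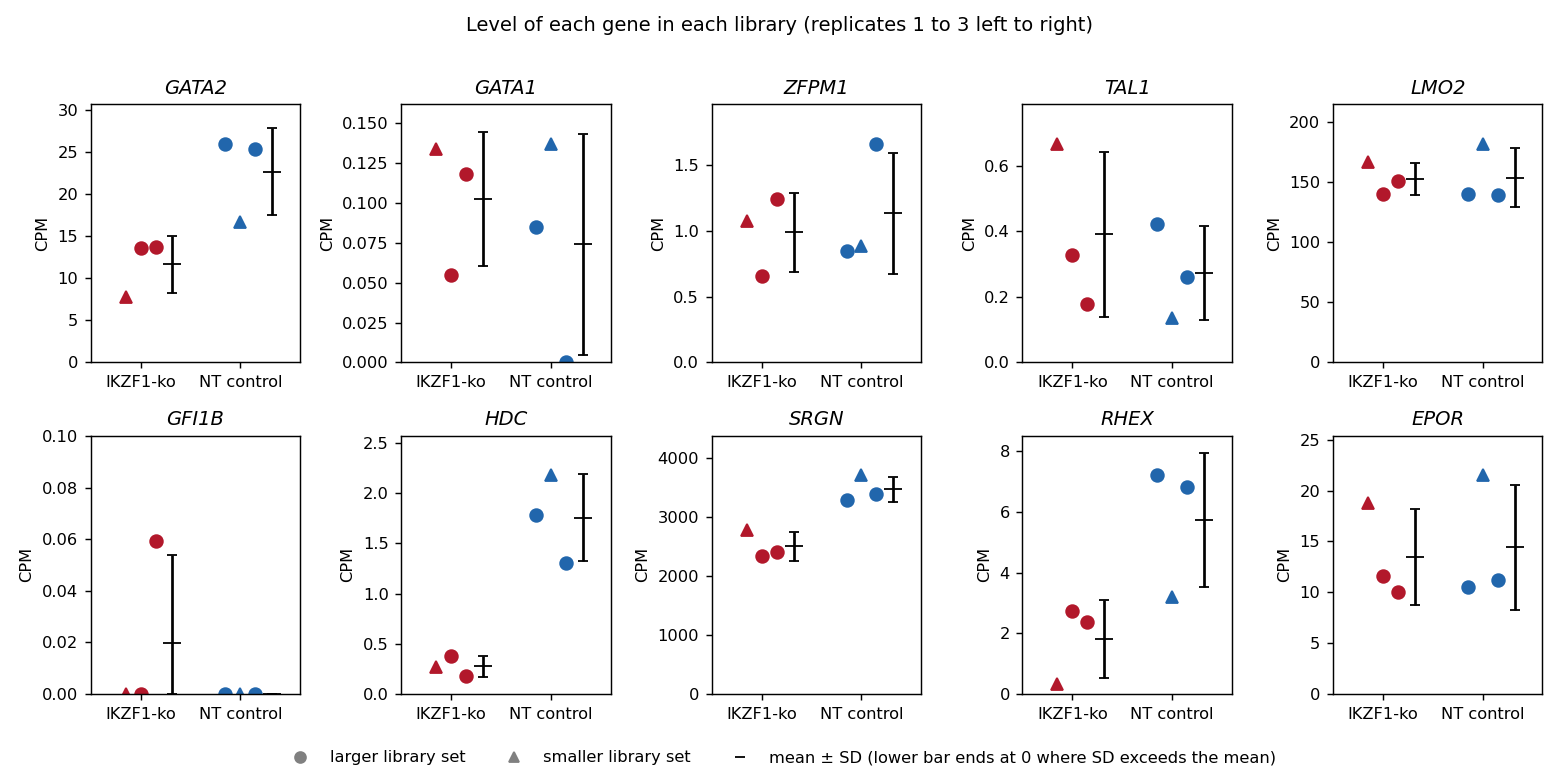
CPM (vertical axes, each from 0) of the 10 genes in each library, IKZF1-ko left of NT control, replicates 1 to 3 in order, triangles for the smaller library set, and bars for mean ± SD (n = 3). GATA2, HDC, SRGN and RHEX have all IKZF1-ko libraries below all NT control libraries, and EPOR is highest in the smaller set of both groups.

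HDC and SRGN were both lower in IKZF1-ko. HDC, the histamine-forming enzyme gene (chromosome 15, 50241947 to 50266026), had 4, 7 and 3 reads in IKZF1-ko replicates 1, 2 and 3, against 21, 32 and 15 reads in NT control replicates. That is 0.267, 0.382 and 0.177 CPM in IKZF1-ko, against 1.78, 2.18 and 1.31 CPM in NT control. All IKZF1-ko values lay far below all NT control values, and HDC had the largest fold among the 7 genes with enough counts for a fit. HDC passed the filter on low counts only through NT control, so its place among the 7 rests on the group where it is high. The log2 fold change was -2.61 (SE 0.41) with the library-set term and -2.42 (SE 0.53) in the 4 libraries, a 6.11-fold and a 5.34-fold lower level. In the 4 libraries it was -3.06 without IKZF1-ko replicate 2 and -1.99 without IKZF1-ko replicate 3. Pooled, HDC had 0.279 CPM in IKZF1-ko (95% exact Poisson interval 0.152 to 0.468) and 1.79 in NT control (1.39 to 2.27).

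SRGN (chromosome 10, 69088106 to 69104811) lay at the other end of the scale. It had 2788, 2333 and 2405 CPM in IKZF1-ko replicates, against 3299, 3711 and 3400 CPM in NT control replicates. The groups did not overlap, and the smaller set held the highest SRGN level in each. The difference was small, with a log2 fold change of -0.47 (SE 0.13) on group alone, where SRGN did not pass in edgeR. With the library-set term it was -0.47 (SE 0.042) and in the 4 libraries -0.50 (SE 0.041), or 1.39-fold and 1.41-fold lower. These smaller errors rest on library sets defined from these counts. SRGN had at least 38867 reads in each library.

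The erythropoietin signalling genes parted. RHEX (chromosome 1, 206052723 to 206102459) had 0.334, 2.73 and 2.36 CPM in IKZF1-ko replicates 1, 2 and 3, against 7.21, 3.21 and 6.82 CPM in NT control replicates. The groups did not overlap, although NT control replicate 2 (3.21 CPM) lay close to IKZF1-ko replicate 2 (2.73 CPM). The log2 fold change was -1.64 (SE 0.66) on group alone, -1.70 (SE 0.24) with the library-set term and -1.46 (SE 0.21) in the 4 libraries. In the smaller set, IKZF1-ko replicate 1 had 5 RHEX reads and was 9.6-fold lower than NT control replicate 2, whereas the other 4 libraries gave a 2.75-fold lower level. RHEX shares 421 exon bases with a pseudogene on its own strand, and how reads there were counted is not known.

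EPOR (chromosome 19, 11377205 to 11384342) had 18.8, 11.6 and 9.99 CPM in IKZF1-ko replicates, against 10.5, 21.5 and 11.2 CPM in NT control replicates. The groups overlapped, and the log2 fold change was -0.08 (SE 0.11) with the library-set term and 0.00 (SE 0.14) in the 4 libraries. On group alone it was -0.1 (SE 0.36). EPOR followed the library sets instead. It was 1.74-fold higher in IKZF1-ko replicate 1 than in the other IKZF1-ko libraries, and 1.98-fold higher in NT control replicate 2 than in the other NT control libraries. RHEX and GATA2 went the other way, with NT control replicate 2 at 0.457 and 0.652 of the other NT control libraries. What the smaller set shares was not tested.

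**Figure D3:**
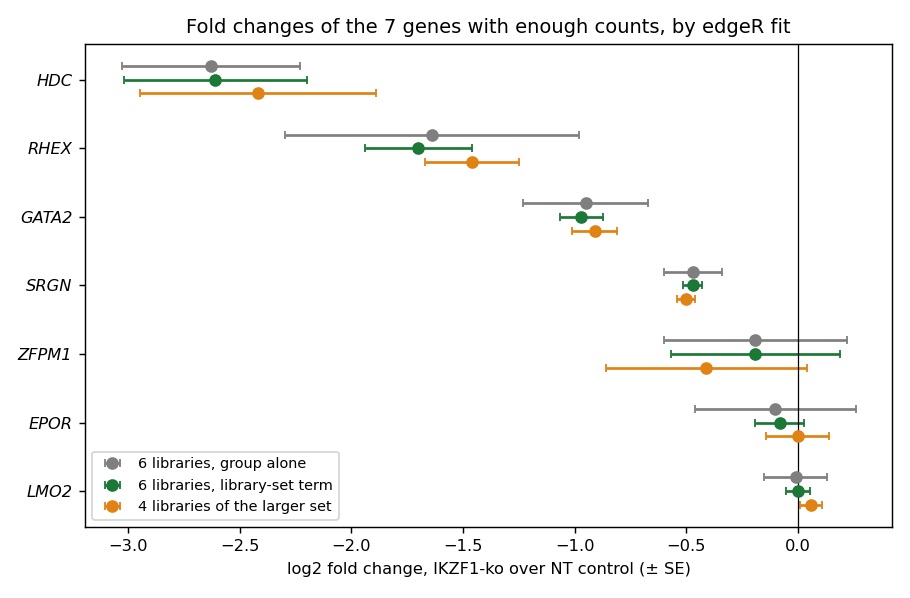
Log2 fold change of IKZF1-ko over NT control (horizontal axis, bars ± SE) of the 7 genes with enough counts, in 3 edgeR fits. HDC, RHEX, GATA2 and SRGN are below 0 in each fit, and ZFPM1, EPOR and LMO2 have values whose bars reach 0 or lie close to it.

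Of the 10 genes, 7 passed the filter on low counts (GATA1, TAL1 and GFI1B did not), and counts over those 7 are no support, since the genes were chosen on this difference. With edgeR's quasi-likelihood test on group alone 0 of the 7 passed an adjusted p of 0.05, as did 0 of 13028 genes (0%). At an unadjusted p under 0.05 there were 4 of the 7 and 3.50% of all genes. DESeq2 on group alone passed HDC and SRGN among 71 genes (0.545%, of which 0.0998% of all genes lower). Of the other settings on group alone, limma-voom passed 1 gene, its form with weights per library 407, and edgeR 8 when low counts were kept. With the library-set term GATA2, HDC, SRGN and RHEX passed as lower and none as higher, beside 6.62% of all genes lower and 6.93% higher. In the 4 libraries the same 4 passed, beside 7.10% of all genes lower and 7.64% higher. With 1 surrogate variable they passed too, beside 3.48% lower and 4.34% higher (7.83% in either direction). All IKZF1-ko libraries were deeper than all NT control libraries, and the part of depth was not tested. This holds also for the fit in the 4 libraries. HDC did not pass in that fit without NT control replicate 1 or without IKZF1-ko replicate 3. All IKZF1-ko libraries lay below all NT control libraries in those 4 genes, and in 4.07% of all genes tested, while 5.28% had all IKZF1-ko libraries above. The median log2 fold change was -0.47 over the 7 genes and 0.0022 over all genes.

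The other genes of these pathways were taken as 12 lists from general knowledge, 216 different genes in all, of which 127 were tested. The lists were chosen with earlier results of these data known, so shares over them are a description and no independent evidence. With the library-set term 16 rose and 14 fell, 23.6% of those tested beside 13.5% of all genes, and 0 passed on group alone. Of these 30 genes, 18 passed in the same direction in both of 2 other fits, that of the 4 libraries and that with the surrogate variable. Adjusted p-values are from edgeR's quasi-likelihood test over all genes.

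A gene of histamine breakdown rose, whereas HDC, of histamine synthesis, was lower. HNMT, which inactivates histamine by methylation, had 37.9, 37.2 and 38.3 CPM in IKZF1-ko replicates, against 21.4, 20.4 and 20.6 CPM in NT control replicates. The groups were wide apart with little spread in either, the log2 fold change was 0.86 (SE 0.075, adjusted p = 8.99e-07), and on group alone the adjusted p was 0.0983. Of 8 histamine handling genes 3 were tested, 1 rose and 0 fell, with a list median of 0.15. The histamine receptor gene HRH2 averaged 36 ± 4.12 CPM in IKZF1-ko and 32.7 ± 5.67 CPM in NT control (adjusted p = 0.203).

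Of 30 mast cell and basophil genes 11 had 0 counts in all libraries and 5 were tested, of which 1 rose and 1 fell (median 0.15). CD63, a tetraspanin of granule membranes, fell to 89.0 ± 10.4 CPM in IKZF1-ko, against 104 ± 4.28 CPM in NT control (adjusted p = 0.0136). ALOX5AP, which serves leukotriene synthesis, rose by 0.15 on the log2 scale (adjusted p = 0.0485). Of 20 genes that build the sugar chains of serglycin and other proteoglycans, 17 were tested, 0 rose and 3 fell (median -0.06). EXT2, a heparan sulfate polymerase gene, averaged 74.1 ± 6.32 CPM in IKZF1-ko and 91.8 ± 10.9 CPM in NT control (log2 fold change -0.31, adjusted p = 0.00106). EXT1, of the same list, had 0 counts in all libraries. XYLT1, which starts the chains, fell by 0.18 (adjusted p = 0.0286). EXTL3 fell by 0.31 (adjusted p = 0.00557), but had an adjusted p of 0.147 with the surrogate variable, and its lowest level in each group was that of the smaller set.

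Of 19 TAL1-LMO2-LDB1 partners 13 were tested, 1 rose and 0 fell (median 0.08). LDB1, the dimerizing cofactor that LMO2 binds, averaged 77.1 ± 7.44 CPM in IKZF1-ko and 77.7 ± 6.57 CPM in NT control, and the E-protein gene TCF3 averaged 123 ± 6.58 CPM in IKZF1-ko and 118 ± 3.08 CPM in NT control (adjusted p = 0.927 and 0.54). SSBP4, which belongs to the single-stranded DNA-binding proteins that stabilize LDB1, was the 1 that rose (log2 fold change 0.23, adjusted p = 0.0351). Of the 4 heptad partners, factors that bind with GATA2, TAL1 and LMO2 in progenitors, ERG had 0 counts and FLI1 rose to 133 ± 16.8 CPM in IKZF1-ko, against 111 ± 14.2 CPM in NT control (adjusted p = 0.0012). RUNX1 averaged 172 ± 15 CPM in IKZF1-ko and 167 ± 10.9 CPM in NT control (adjusted p = 0.614). Of 7 other GATA and FOG family genes 3 were tested and TRPS1, an atypical GATA repressor, rose 1.33-fold (adjusted p = 4.53e-04), with its highest level in each group in the smaller set.

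All 24 corepressor genes of GFI1B and FOG1 were measured, of which 2 rose and 4 fell, by at most 0.24 on the log2 scale (median 0.01). PHF21A (0.24), HDAC2 (0.15), MTA2 (-0.17) and RBBP7 (-0.16) had the lowest adjusted p, and 0 of the 24 passed with the surrogate variable. GFI1, the paralog of GFI1B in myeloid cells, averaged 164 ± 9.90 CPM in IKZF1-ko and 165 ± 8.33 CPM in NT control (adjusted p = 0.989). Of 12 myeloid factors that are set against GATA factors 11 were tested, 1 rose and 1 fell (median 0.13). In the 4 libraries 3 rose and 1 fell. EGR1 rose there by 0.86 on the log2 scale (adjusted p = 9.47e-10), but not with the library-set term (adjusted p = 0.104). In the smaller set EGR1 had 79.9 CPM in IKZF1-ko replicate 1, against 99.7 CPM in NT control replicate 2. SPI1, which encodes PU.1, an antagonist of GATA1, averaged 222 ± 22.7 CPM in IKZF1-ko and 229 ± 3.13 CPM in NT control (adjusted p = 0.585). CEBPE, a factor of late granulocytes, had 25.2, 33.7 and 30.3 CPM in IKZF1-ko replicates, against 45.1, 42.7 and 43.0 CPM in NT control replicates. Its groups did not overlap, and it fell by 0.56 on the log2 scale (SE 0.079, adjusted p = 1.67e-04). KLF4, a factor of monocytes, averaged 4.04 ± 0.586 CPM in IKZF1-ko and 2.32 ± 0.730 CPM in NT control (adjusted p = 0.0293, and 0.179 in the 4 libraries).

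**Figure D4:**
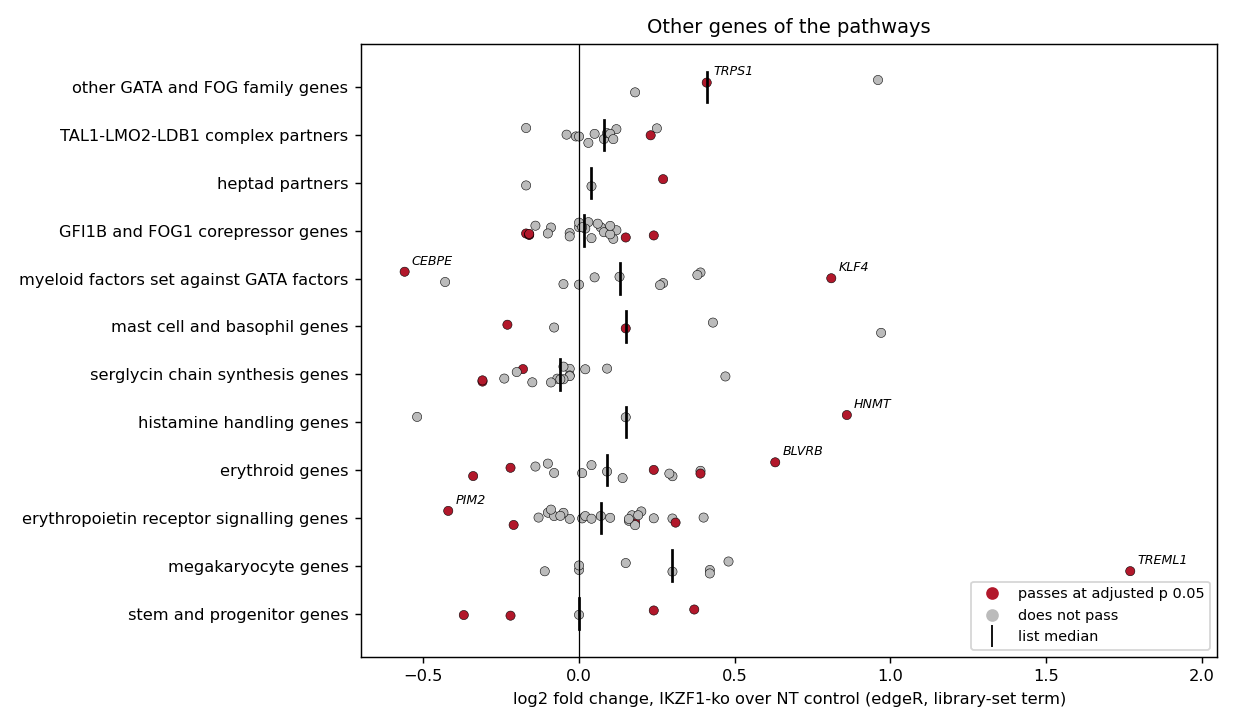
Log2 fold change of IKZF1-ko over NT control (horizontal axis, edgeR with the library-set term) of the tested genes of 12 pathway lists, 1 point per gene, red where the adjusted p is under 0.05, with a line at each list's median. TREML1 (1.77), HNMT (0.86), KLF4 (0.81) and BLVRB (0.63) rose, CEBPE (-0.56) and PIM2 (-0.42) fell, and the list medians lie between -0.06 and 0.41.

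Of 41 erythroid genes 20 had 0 counts in all libraries and 15 were tested, of which 3 rose and 2 fell (median 0.09). CA2, carbonic anhydrase II, had 747, 653 and 669 CPM in IKZF1-ko replicates, against 503, 572 and 502 CPM in NT control replicates. Every IKZF1-ko library was above every NT control library (log2 fold change 0.39, SE 0.042, adjusted p = 9.16e-06). TFRC, the transferrin receptor gene, averaged 274 ± 92.6 CPM in IKZF1-ko and 346 ± 112 CPM in NT control (adjusted p = 8.94e-05), and was lowest in the smaller set. MYB, which keeps progenitors cycling, fell by 0.22 (adjusted p = 0.00375). SLC25A37, the mitochondrial iron importer gene, rose by 0.24 (adjusted p = 0.00356), but had an adjusted p of 0.466 with the surrogate variable. BLVRB, a biliverdin reductase gene, rose by 0.63 (adjusted p = 0.0214, and 0.141 with the surrogate variable).

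Of 29 genes of EPOR signalling 25 were tested, 2 rose and 2 fell (median 0.07). The kinase gene JAK2, which EPOR activates, averaged 20.9 ± 3.33 CPM in IKZF1-ko and 18.6 ± 1.74 CPM in NT control (adjusted p = 0.302), and STAT5B averaged 131 ± 29 CPM in IKZF1-ko and 134 ± 30.4 CPM in NT control (adjusted p = 0.781). PIM2, a survival kinase gene induced by STAT5, fell to 23.0 ± 5.41 CPM in IKZF1-ko, against 30.8 ± 9.11 CPM in NT control (adjusted p = 0.00327). PTPN6, the phosphatase SHP-1 that ends EPOR signalling, fell to 170 ± 5.64 CPM in IKZF1-ko, against 197 ± 8.13 CPM in NT control (adjusted p = 0.00903). The adaptor gene GAB2 (1.24-fold) and the ubiquitin ligase gene CBL (1.13-fold) rose. Some of the list genes named by lowest adjusted p share exon bases with a gene on the opposite strand. They are CBL, SSBP4, FLI1, CD63, XYLT1, EXTL3, HDAC2, RBBP7, MYB and MEIS1. Reads of the 2 strands cannot be told apart there where the strand setting is unknown. Such overlaps are not given for list genes named for other reasons, among them BLVRB, HRH2, LDB1, TCF3, RUNX1, GFI1, SPI1, EGR1, JAK2 and STAT5B.

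Of 21 megakaryocyte genes 9 were tested, 1 rose and 0 fell (median 0.30). It was TREML1, a receptor of platelet granules, at 0.468, 2.24 and 1.30 CPM in IKZF1-ko replicates, against 0.848, 0 and 0.350 CPM in NT control replicates (adjusted p = 0.0241). The groups overlapped, and within the larger set both IKZF1-ko values were the higher. Of 12 stem and progenitor genes 5 were tested, 2 rose and 2 fell (median 0). CD38, which marks committed progenitors, fell to 96.1 ± 13.4 CPM in IKZF1-ko, against 123 ± 9.54 CPM in NT control (adjusted p = 3.32e-04). The receptor kinase gene FLT3 rose by 0.24 and the homeobox gene MEIS1 by 0.37, but with the surrogate variable their adjusted p was 0.059 and 0.317.

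The profile of GATA2 over the 6 libraries was compared with those of 10239 genes of at least 5 CPM, as the root mean square difference between log2 CPM values after each gene was centred on its mean. The 6 nearest were CAPG (0.189), PHLDA3 (0.19), PRKAR1B (0.208), SLC26A9 (0.21), STK17A (0.214) and AEN (0.216). CAPG, an actin-capping protein gene, had 27.9, 46.7 and 43.8 CPM in IKZF1-ko replicates 1, 2 and 3, against 68.6, 44.4 and 65.9 CPM in NT control replicates. Like GATA2 it was lowest in the smaller set of each group. The nearest genes were picked on this profile, so a pattern shared with GATA2 follows from the choice. PHLDA3 had 6.75, 15.7 and 16.3 CPM in IKZF1-ko replicates, against 22.4, 15 and 24.0 CPM in NT control replicates. It shares exon bases with another gene on its own strand. Among the genes followed with GATA2, SRGN ranked 2402, LMO2 6888 and EPOR 9390 by this measure. RHEX (mean 3.78 CPM), HDC (mean 1.02 CPM), ZFPM1, GATA1, TAL1 and GFI1B averaged under 5 CPM and were not ranked. Over the 4 libraries of the larger set alone, 0 of the 6 were again among the nearest 6, and they ranked 20 (CAPG), 33 (PHLDA3), 84 (PRKAR1B), 15 (SLC26A9), 64 (STK17A) and 101 (AEN).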

How the data were processed

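The authors deposited 1 table of read counts per Ensembl gene, 1 column per library, as whole numbers with no scaling. Per the submitters' processing notes, Trimmomatic and STAR were used with GRCh38. Libraries were made with a stranded mRNA kit, per the labels' protocols. For the read counter, its strand setting and its annotation the sources used here give nothing. Columns were matched to samples by the library name in the labels and to groups by title, and there were 0 columns of other samples. GENCODE release 29 gave positions and exon lengths for 57895 identifiers, and 57392 had a symbol.

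Genes were filtered by filterByExpr (13028 kept, 99.9% of counts), scaled by TMM and tested with edgeR 4.0.16 in R 4.3.3 (quasi-likelihood F test, two-sided, Benjamini-Hochberg over all genes, threshold 0.05), on group alone, with a library-set term and in 4 libraries. The library sets were defined from these counts, so p-values with the term leave out the uncertainty of that choice. Standard errors were derived from each log2 fold change and its F statistic. Log2 CPM used a prior count of 2. Alternatives used DESeq2 1.42.0, limma 3.58.1 and sva 3.50.0 with 1 surrogate variable. The tests were also run on counts simulated with the library sets known, which cannot check the choice of those sets from the data. No 2 libraries of a group agreed within sampling noise (lowest chi-square over degrees of freedom 2.26).

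One of the erythroid markers is not reported here. The members and lists were chosen with earlier results of these data known. Named list genes are up to 4 per list that passed with the library-set term, by lowest adjusted p, and the 6 genes nearest to GATA2 among genes of at least 5 CPM. BLVRB, HRH2, LDB1, TCF3, RUNX1, GFI1, SPI1, ERG, JAK2 and STAT5B fall outside that rule and were chosen for their role after values were seen. EGR1 also falls outside that rule and is named for its change in the 4 libraries.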

Additional observations from a re-analysis of the deposited data

How the results depend on the processing

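On group alone, edgeR passed 0 of the 10 genes and 0 genes in all. DESeq2 passed 2 (HDC and SRGN) of 71 genes, a surrogate variable 4 of 1020 and limma-voom with quality weights 4 of 407. Limma-voom passed 1 gene and edgeR with low counts kept 8, none of them of the 10. With the library-set term (4 of the 10, 1765 genes), DESeq2 passed 1159 genes and the surrogate variable in its place 1020. Leaving out 1 library gave 4 of the 10 each time and 811 (without IKZF1-ko replicate 3) to 1943 genes, with 948 without NT control replicate 1. In the 4 libraries (4 of the 10, 1908 genes), DESeq2 passed 825 genes, and leaving out 1 library gave 3 to 4 of the 10 and 1339 to 1501 genes (a lone library is then assumed to vary like the others). DESeq2 passed 3 of the 10 in both, since HDC had no adjusted p in DESeq2 with the library-set term or in the 4 libraries.

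Of the pathway list genes, 30 passed with the library-set term, 0 on group alone and 15 (without IKZF1-ko replicate 3) to 37 when 1 library was left out, with 17 without NT control replicate 1. Of 458 alternative values of the named list genes, 83 no longer passed, 27 of them on group alone, and 0 changed sign. The log2 fold change with the library-set term ranged over its alternatives from -0.99 to -0.91 for GATA2, -0.50 to -0.45 for SRGN, -1.92 to -1.46 for RHEX and -3.02 to -2.42 for HDC. The cause of these shifts was not tested.

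Deviations from the group means correlated at -0.655, -0.689 and 0.588 for replicate numbers 1, 2 and 3. Pairs of unlike number within the larger set gave 0.54 to 0.571. Numbers 1 and 2 each join libraries of different sets, so these values cannot decide whether the numbers pair the libraries. A replicate block left 0 genes on group alone and passed 2942 with the library-set term, with 4 of the 10 genes. With both terms the fit has nearly as many coefficients as libraries, so its spread is poorly estimated. Per kilobase of the longest transcript in place of all exons, GATA1 and TAL1 changed places. Counting error limits GATA1, TAL1, GFI1B, ZFPM1 and HDC.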
